A study of Saccharomyces cerevisiae with 26 samples.

Results

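Ergosterol is the main sterol of yeast membranes. Its synthesis runs from acetyl-CoA through mevalonate and farnesyl diphosphate to squalene, and then through a series of oxygen-requiring oxidations, demethylations and desaturations to ergosterol. The sterol-responsive activators Upc2 and Ecm22 bind the sterol response element of many genes of the pathway, the heme-dependent repressor Rox1 and its partner Mot3 repress genes of low-oxygen growth, and *S. cerevisiae* imports sterols mainly when oxygen is short.

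The genes described here are those of sterol synthesis, uptake and regulation. They were chosen by a fixed list of systematic names from what their products are known to do. The list does not use their measured values, but it was chosen with earlier results of these data known. All 34 were found among the 6600 genes of the files. They comprise 9 genes of the mevalonate and isoprenoid steps (the early steps), 16 genes of the steps from squalene to ergosterol (the late steps), the 2 sterol esterification enzymes, the 2 sterol importers, 4 transcription factors and the oxysterol-binding protein gene HES1.

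Messenger RNA was sequenced in 26 libraries of *S. cerevisiae* CEN.PK113-7D, a haploid laboratory reference strain with no engineered allele named in the labels. All cultures were aerobic, glucose-limited bioreactor cultures. The chemostats were diluted at 0.025 per hour and fall into 4 groups of 3 libraries taken at steady state. The reference was grown at pH 5 on inlet gas of 0.04% CO2, the high CO2 group at pH 5 on 50% CO2, the low pH group at pH 3 on 0.04% CO2, and the group under both at pH 3 on 50% CO2. In the labels of the 2 groups on 0.04% CO2, the text on culture growth also speaks of 50% CO2, against the condition their own characteristics give, which was followed here. In the group under both, 1 library was labelled as a chemostat (replicate 3), and the other 2 (replicates 1 and 2) were the industrial retentostats at point 1, before biomass was retained. A retentostat holds cells back while medium flows through, so that growth slows towards zero. The laboratory retentostats (pH 5, 0.04% CO2) and the industrial retentostats (pH 3, 50% CO2) were each sequenced from 2 cultures at 4 points, with no treatment beyond pH, gas and growth rate. The points of the 2 kinds of retentostat were not taken at the same times, and the medium of the laboratory retentostats differed in glucose, iron and biotin. The 50% CO2 gas was made by mixing CO2 with an equal flow of compressed air, so it also carried less oxygen, and an effect of CO2 and one of the lower oxygen share cannot be told apart. By the study's account, cultures at pH 3 oscillated in off-gas composition and held fewer viable cells. In bulk samples, fewer cells that express a gene and less RNA of it per cell cannot be told apart.

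Values are given as scaled FPKM, that is the deposited FPKM (fragments per length of gene, relative to all fragments counted in the library) times a scaling factor of the library. The reads on genes ranged from 12528648 to 86470818 per library, and members had from 18 (HES1) to 140824 (ERG11) reads in a library. The chemostat factors ran from 0.754 to 1.36, with those of the group under low pH alone (1.16 to 1.36) above all others. Groups said below to lie apart do so in scaled FPKM, and not all of them do on FPKM as deposited. Replicate libraries correlated with r from 0.9731 to 0.9967, and none of these 19 pairs agreed within sampling noise. The chi-square per gene, which is about 1 for sampling noise, was 2.46 for replicates 2 and 3 of the group under low pH alone and 130 and 133 for these against replicate 1, so this group held a close pair and a library apart. In the group under both it was 20.7 for the industrial retentostats at point 1, and 159 and 99.2 for these against the library labelled as a chemostat. At pH 5, replicate 3 of the 0.04% CO2 group was the lowest of its group in 22 of the 29 members tested and replicate 1 of the 50% CO2 group in 24 of 29, against 45.7% and 48.4% of all genes tested. At low pH with high CO2, the library labelled as a chemostat was the lowest in 24 of 29 members, against 42.8% of all genes.

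The sterol response element core, TCGTATA read on either strand, lay within 250 bases before to 50 bases after the start codon of 3 of the 34 members (8.82%), against 4.14% of 6008 protein-coding genes of build R64. In a window of 600 bases before the start codon, chosen after the first window had been examined, it lay before 8 of 34 members (23.5%), against 8.57% of all genes, and before 6 of the 16 late genes (37.5%). All 11 sites of this window are shown because they are the letters that the activators of the pathway are known to read and because their genes return in the results. Each is printed on the strand on which it reads TCGTATA, with the core in capitals and 10 bases on either side, from R64.
ERG13 (chrXIII:20733-20759, minus strand): ggaataagctTCGTATAtacaatagaa
ERG13 (chrXIII:20620-20646, plus strand): ttcaacacacTCGTATAattaatagcc
ERG8 (chrXIII:712154-712180, minus strand): cttttagatcTCGTATAgaaaaacgca
ERG1 (chrVII:848789-848815, minus strand): tagcgggcctTCGTATAgctcggccga
ERG25 (chrVII:610071-610097, plus strand): ctgcctccctTCGTATAcgggacacag
ERG25 (chrVII:610091-610117, plus strand): gacacagagaTCGTATAcggtaaacga
ERG28 (chrV:238278-238304, plus strand): ttaattcagtTCGTATAagattaggtt
ERG6 (chrXIII:253406-253432, minus strand): gccccgatctTCGTATAtggtacctcg
ERG2 (chrXIII:667342-667368, plus strand): accacggcccTCGTATAagccgcaagg
ERG3 (chrXII:253525-253551, minus strand): gccatcggccTCGTATAcaccccggtt
ERG3 (chrXII:253565-253591, plus strand): aaattcaggcTCGTATAagtggcacaa
ERG13, ERG25 and ERG3 held a pair of sites each. The cores lay between 95 (ERG13) and 477 (ERG25) bases before the start codon, and none overlapped a match to the other motifs searched. The core of the Rox1 site, ATTGTT, lay in the 250 and 50 base window of 15 of 34 members (44.1%), against 35.2% of all genes. The Hap1 motif, a spaced pair of CGG triplets, lay in that of 0 of 34 members, against 0.133% of all genes. These are matches of letters and not shown binding sites.

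The levels of the members spanned a wide range at steady state. In the reference group ERG25, which encodes the methylsterol oxidase, read 1926, 1454 and 777 scaled FPKM, while the importer gene PDR11 read 15.0, 13.5 and 10.3 and the regulator gene UPC2 read 6.46, 6.05 and 6.95. A limit of a mean FPKM of 10 over the 12 chemostat libraries left 29 members for testing. The 5 below it were ERG8 (phosphomevalonate kinase), ARE1 (an acyl-CoA sterol acyltransferase), AUS1 (a sterol importer), UPC2 and HES1. Over these 12 libraries ERG8 read 5.87 to 10.4 scaled FPKM and HES1 read 1.44 to 6.22. HES1 was at 4.44, 4.29 and 6.22 in the reference, 4.75, 4.78 and 4.23 under high CO2 alone, 2.42, 1.89 and 1.44 under low pH alone, and 2.17, 2.53 and 1.76 under both. All 6 pH 3 libraries thus lay below all 6 pH 5 libraries for HES1, with no test at this level.

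**Figure D1:**
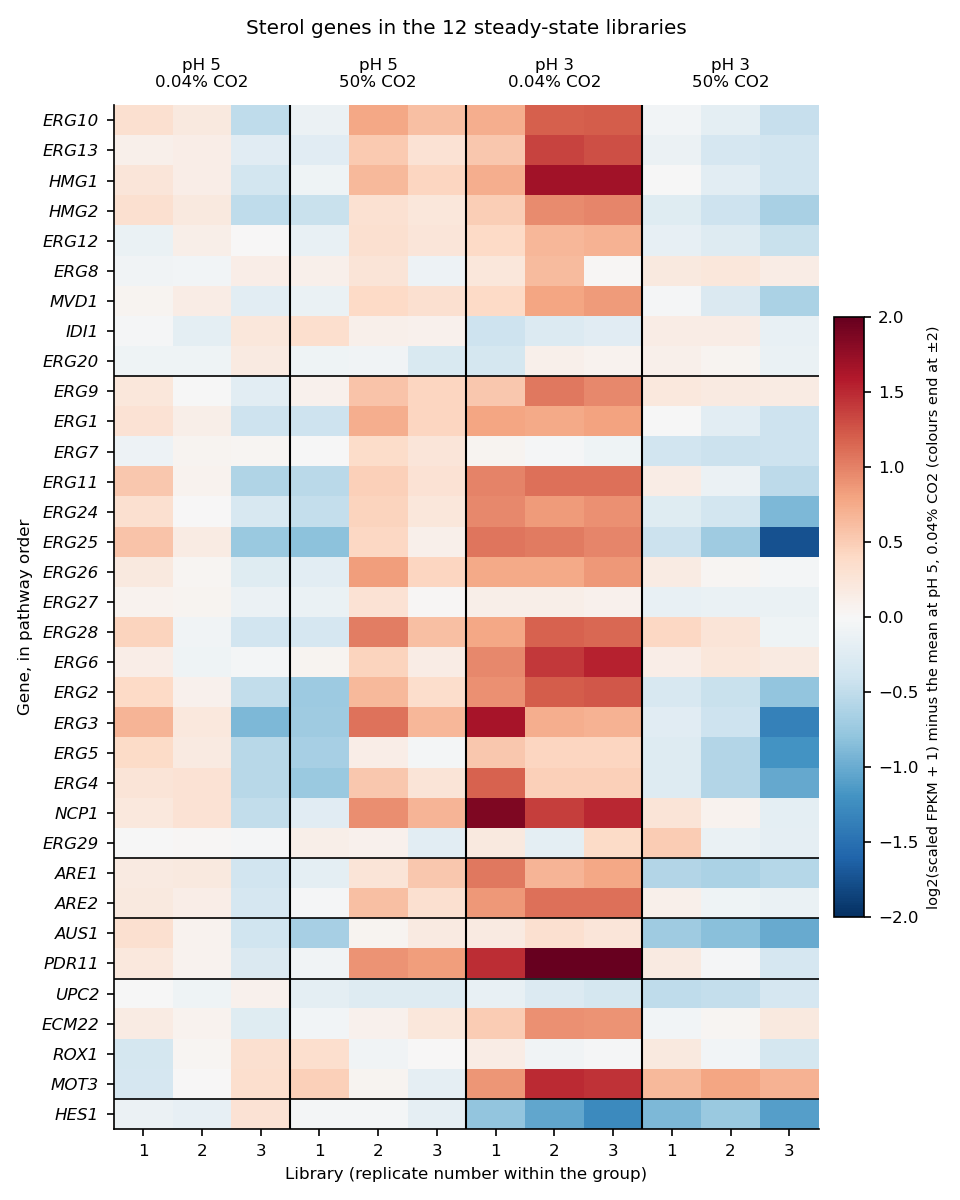
Each row is 1 of the 34 members in pathway order and each column 1 of the 12 steady-state libraries; colour gives log2(scaled FPKM + 1) minus the mean of the 3 libraries under the reference conditions, ending at 2 and -2, and lines separate groups and gene lists. Most rows are red in the 3 libraries under low pH alone, and replicate 3 of the reference group, replicate 1 under high CO2 alone and replicate 3 under both are the palest or bluest of their groups.

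At 0.04% CO2, lowering the pH from 5 to 3 was accompanied by higher transcript levels over most of the pathway. Of the 29 members tested, 26 had a positive log2 change, with a median of 0.85 against 0.00 over all genes tested. At the study's limits, a fold change above 2 and an adjusted p under 0.005, 5 members rose (ERG6, NCP1, ARE2, PDR11 and MOT3) and 0 fell, where 2.82% of all 5078 genes rose and 0.807% fell. At an adjusted p under 0.05 with no limit on the fold, 18 members rose and 0 fell, where 13.1% of all genes rose and 8.49% fell. Adjusted p-values are from limma's moderated test with Benjamini-Hochberg adjustment over all genes tested. The 3 libraries at pH 3 lay above all 3 reference libraries in 24 of the 29 members, against 25.7% of all genes.

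Among the early steps, 6 of the 8 genes tested rose at an adjusted p under 0.05, where 13.1% of all genes did, and IDI1 and ERG20 did not. HMG1, which encodes the main isoform of HMG-CoA reductase, the rate-limiting enzyme of the pathway, read 148, 137 and 96.2 scaled FPKM in the reference and 207, 402 and 402 under low pH alone. Its groups did not overlap, and replicate 1 at pH 3 was far below the other pH 3 libraries. The log2 change was 1.36 ± 0.28 (SE, 3 against 3 libraries, adjusted p = 0.0058). ERG10 (acetoacetyl-CoA thiolase) changed by 1.04 ± 0.27 on the log2 scale and ERG13 (HMG-CoA synthase, with a pair of response element cores) by 1.06 ± 0.24, with adjusted p = 0.019 and 0.01. The log2 changes of HMG2, ERG12 (mevalonate kinase) and MVD1 (mevalonate diphosphate decarboxylase) were 0.81, 0.58 and 0.68. IDI1 (isopentenyl diphosphate isomerase) had a log2 change of -0.31 ± 0.15 (adjusted p = 0.15) and ERG20 (farnesyl diphosphate synthase) of -0.06 ± 0.14 (adjusted p = 0.78).

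Among the late steps, 8 of 16 genes rose at an adjusted p under 0.05, where 13.1% of all genes did. The median log2 change was 0.88 over the 16 genes and 0.74 over the 8 early genes tested. ERG6 (YML008C, chrXIII:251839-252990, minus strand, a single coding exon) encodes the sterol methyltransferase that sets ergosterol apart from animal sterols. It read 418, 359.9 and 371 in the reference, 398, 523 and 422 under high CO2 alone, 742, 1016 and 1109.8 under low pH alone, and 417, 449.8 and 435 under both. The libraries under low pH alone stood above all 9 others. Against the reference the log2 change was 1.30 ± 0.17 (adjusted p = 0.00045). NCP1 (YHR042W, chrVIII:190543-192618, plus strand) encodes the reductase that passes electrons to the cytochromes P450 of the pathway, and it read 62.7, 66.3 and 38.5 in the reference, 46.2, 105 and 87.3 under high CO2 alone, 200.1, 143 and 156 under low pH alone, and 65.3, 57.4 and 47.3 under both. It too was highest in all libraries under low pH alone, and its log2 change against the reference was 1.58 ± 0.29 (adjusted p = 0.0034). The changes of ERG9 (squalene synthase), ERG11 (lanosterol demethylase, the target of azole drugs), ERG24 (a sterol reductase), ERG26 and ERG28 (both of the complex that removes methyl groups) and ERG2 (sterol isomerase) ran from 0.80 (ERG26) to 1.12 (ERG2).

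The remaining late genes did not pass. ERG25 had a log2 change of 1.02 ± 0.41 (adjusted p = 0.089), close to that of ERG10 but with a wide spread in the reference group, where the libraries read 1926, 1454 and 777 scaled FPKM against 2713, 2652 and 2544 at pH 3. ERG3 (sterol desaturase) had 1.02 ± 0.51 (adjusted p = 0.16), with 881, 633 and 293 in the reference and 1725, 901 and 885 at pH 3. These groups did not overlap, but replicate 1 at pH 3 was well above the other pH 3 libraries and replicate 3 of the reference well below its own. ERG1 (squalene epoxidase), ERG4 (the reductase of the last step) and ERG5 (a P450 desaturase) had log2 changes of 0.78, 0.71 and 0.47. ERG7 (lanosterol synthase), ERG27 (a ketoreductase) and ERG29 lay within 0.13 of 0, at -0.02, 0.11 and 0.13.

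**Figure D2:**
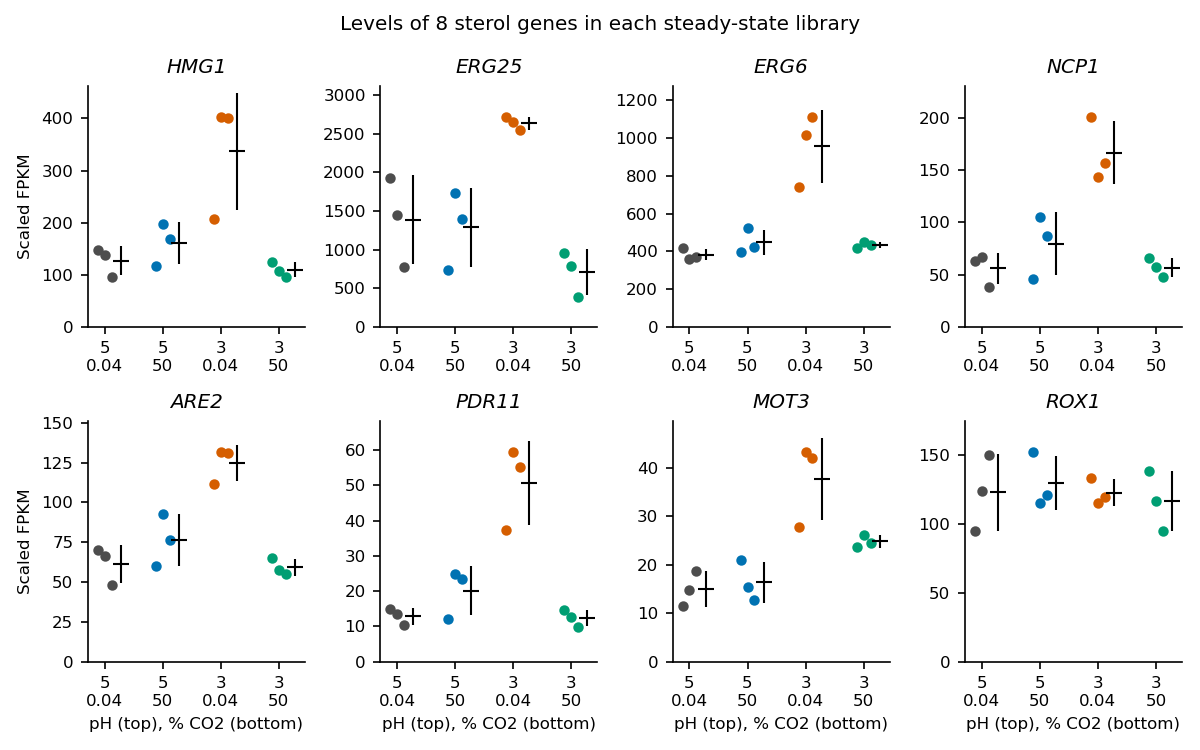
Points are the scaled FPKM of each of the 3 libraries of a group, in the order of the replicates, and the bar beside them is the mean ± SD; groups are named by pH and % CO2 and each panel has its own axis from 0. In 7 of the 8 panels every library under low pH alone lies above every library of the other groups in scaled FPKM, and ROX1 overlaps throughout. On FPKM as deposited, the libraries under low pH alone overlap another group for HMG1, ERG25 and MOT3.

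Outside the synthesis steps, PDR11, ARE2 and MOT3 rose past both limits. PDR11 (YIL013C, chrIX:328207-332442, minus strand), a membrane transporter for the import of sterols, read 15.0, 13.5 and 10.3 in the reference, 12.1, 24.8 and 23.6 under high CO2 alone, 37.3, 59.4 and 55.4 under low pH alone, and 14.6, 12.6 and 9.93 under both. The libraries under low pH alone stood apart from all others, and the log2 change against the reference, 1.88 ± 0.27 (adjusted p = 0.00083), was the largest of the 29 members tested. ARE2 (YNR019W, chrXIV:665339-667267, plus strand), the main enzyme that joins sterols to fatty acids for storage, read 70.1, 66.7 and 48.0 in the reference, 59.8, 92.7 and 76.3 under high CO2 alone, 112, 132 and 131 under low pH alone, and 65.2, 57.3 and 55.1 under both. Its log2 change was 1.02 ± 0.18 (adjusted p = 0.0026), again with no overlap between low pH and the other groups. MOT3 (YMR070W, chrXIII:409154-410626, plus strand) read 11.5, 14.7 and 18.8 in the reference, 21.0, 15.3 and 12.8 under high CO2 alone, 27.8, 43.2 and 41.9 under low pH alone, and 23.7, 26.2 and 24.5 under both. Its log2 change was 1.27 ± 0.22 (adjusted p = 0.0024), and, as in no other member tested, all libraries under both also lay above all reference libraries. ECM22 rose by 0.77 ± 0.15 (adjusted p = 0.0044), short of the limit on the fold, while ROX1 had 0.02 ± 0.19 (adjusted p = 0.95).

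The counts rest on few libraries. Of the 5 members past both limits, 1 was left without replicate 2 and 1 without replicate 3 under low pH alone, 2 without replicate 2 of the reference and 2 without replicate 2 of the industrial point 1, 3 without replicate 1 and 3 without replicate 3 of the reference, while 8 passed without replicate 1 under high CO2 alone. The count of 18 at an adjusted p under 0.05 became 8 without replicate 2 and 8 without replicate 3 under low pH alone, 10 without replicate 3 of the reference and 12 without its replicate 2. On FPKM as deposited, the median of all genes was -0.42 and that of the members 0.42. On that scale 1 member rose past both limits, and the split over all genes turned from 143 higher and 41 lower to 63 higher and 131 lower. The changes of ERG27, ERG29 and ROX1 were then below 0.

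At pH 3, 50% CO2 was accompanied by lower levels over the same pathway. Of the 29 members, 27 had a negative log2 change, with a median of -1.06 against 0.00 over all genes. Past both limits, 11 members fell (ERG10, ERG13, HMG1, HMG2, ERG24, ERG25, ERG6, ERG2, NCP1, ARE2 and PDR11) and 0 rose, where 8.15% of all genes fell and 0.689% rose. At an adjusted p under 0.05, 23 members fell and 0 rose, where 26.6% of all genes fell and 22.6% rose. In 25 of 29 members all 3 libraries with 50% CO2 lay below all 3 with 0.04% CO2, against 34% of all genes. This comparison shares the libraries under low pH alone with the one above.

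Of the early steps, 6 of 8 genes fell at an adjusted p under 0.05 and 4 of them past both limits, where 26.6% and 8.15% of all genes fell. ERG10 read 575, 526 and 323 in the reference, 426, 792 and 699 under high CO2 alone, 761, 1055 and 1064 under low pH alone, and 445, 402 and 333 under both. Its libraries under both lay below all under low pH alone and overlapped the reference, for a log2 change between the CO2 levels of -1.28 ± 0.27 (adjusted p = 0.0038). ERG13 read 406, 413 and 322 in the reference, 322, 542 and 463 under high CO2 alone, 548, 963 and 928 under low pH alone, and 348, 299.6 and 289 under both, with the same order of the groups at pH 3 and a log2 change of -1.34 ± 0.24 (adjusted p = 0.0017). HMG1 read 125, 108 and 95.9 under both, below each of its values under low pH alone, and changed by -1.55 ± 0.28 (adjusted p = 0.0016). HMG2, the second isoform of the reductase, changed by -1.24 ± 0.25 (adjusted p = 0.0029). ERG12 and MVD1 had log2 changes of -0.87 and -0.99, with adjusted p = 0.0013 and 0.003, so that they missed the limit on the fold alone. IDI1 and ERG20 again did not pass, at 0.36 and 0.07, and IDI1 was the only member tested whose libraries with 50% CO2 all lay above those with 0.04% CO2.

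Of the late steps, 14 of 16 genes fell at an adjusted p under 0.05, all but ERG27 and ERG29, where 26.6% of all genes fell. ERG25 (YGR060W, chrVII:610564-611493, plus strand, a pair of response element cores) read 1926, 1454 and 777 in the reference, 735, 1733 and 1394 under high CO2 alone, 2713, 2652 and 2544 under low pH alone, and 957, 794 and 385 under both. The 3 libraries under low pH alone agreed closely, those of every other group spread widely, and no library with 50% CO2 at pH 3 reached 1000. Its log2 change, -1.99 ± 0.41 (adjusted p = 0.0034), was the largest fall among the members. ERG24 read 139.8, 112 and 89.3 in the reference, 80.5, 154 and 131 under high CO2 alone, 219.6, 203 and 212 under low pH alone, and 95.0, 86.3 and 59.3 under both, and changed by -1.41 ± 0.25 (adjusted p = 0.0015). ERG2 read 682, 552 and 370.2 in the reference, 313, 809.7 and 662 under high CO2 alone, 978, 1201 and 1233 under low pH alone, and 413, 379 and 299.9 under both, and changed by -1.65 ± 0.32 (adjusted p = 0.0026). For both genes the groups at pH 3 did not overlap. ERG6 and NCP1 had log2 changes of -1.12 ± 0.17 and -1.54 ± 0.29 (adjusted p = 0.00066 and 0.0022). ERG3, ERG4, ERG5 and ERG11 changed by between -1.15 (ERG5) and -1.69 (ERG3) at adjusted p from 0.0091 (ERG5) to 0.019 (ERG3). ERG9, ERG26 and ERG28 changed by -0.66, -0.74 and -0.83 (adjusted p = 0.0098, 0.017 and 0.047). ERG7 fell by 0.39 (adjusted p = 0.016), with 87.2, 82.5 and 79.5 scaled FPKM at 0.04% and 64.4, 62.2 and 62.8 at 50% CO2.

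Among the other members, PDR11 changed by -1.94 ± 0.27 (adjusted p = 0.00046) and ARE2 by -1.06 ± 0.18 (adjusted p = 0.0012). ECM22 fell by 0.71 on the log2 scale (adjusted p = 0.0036), short of the limit on the fold, whereas MOT3 (-0.56 ± 0.22, adjusted p = 0.051) and ROX1 (-0.09 ± 0.19, adjusted p = 0.72) did not pass. The count of 23 at an adjusted p under 0.05 stayed between 20 and 24 with any 1 library left out. The count of 11 past both limits became 1 without replicate 2 and 1 without replicate 3 under low pH alone, 7 without its replicate 1, 2 without the library labelled as a chemostat and 2 without replicate 2 of the industrial point 1, and with that labelled library as the whole group 0 members passed and 18 had an adjusted p under 0.05. On FPKM as deposited the median of all genes was 0.60 and that of the members -0.46. On that scale 3 members fell past both limits, ERG7, ERG27, ERG29, ROX1 and MOT3 turned positive, and the split over all genes turned from 35 higher and 414 lower to 1054 higher and 149 lower.

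**Figure D3:**
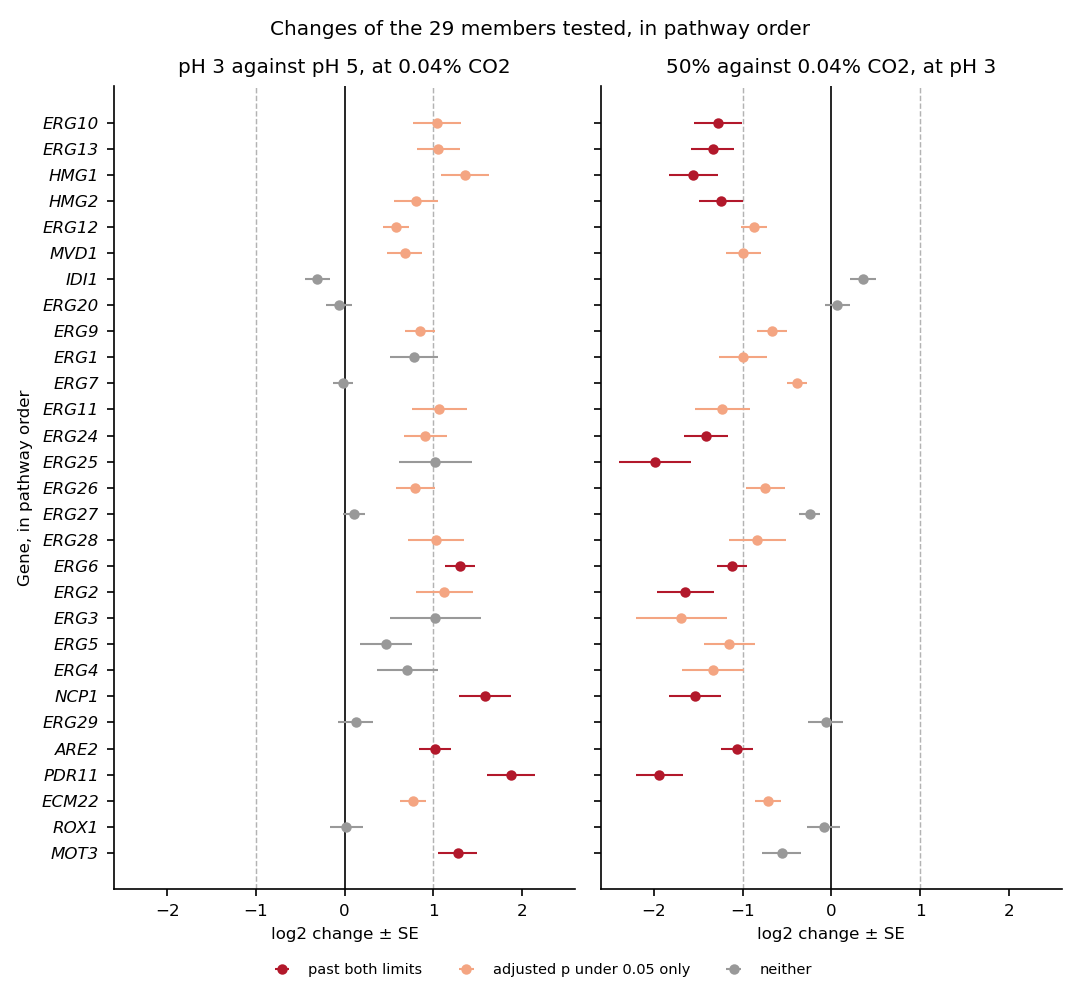
Points are the log2 changes of the 29 members tested with their SE (3 against 3 libraries), for pH 3 against pH 5 at 0.04% CO2 (left) and 50% against 0.04% CO2 at pH 3 (right); dashed lines mark a fold change of 2, and colour gives the limits passed. Both panels use the libraries under low pH alone, so that they are not independent: 26 of 29 points lie right of 0 on the left and 27 of 29 left of 0 on the right.

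The other chemostat comparisons called no member at these limits. For 50% against 0.04% CO2 at pH 5, 0 of 29 members passed limma's test past both limits, 0 at an adjusted p under 0.05 and 0 at an unadjusted p under 0.05, where 0.532%, 2.01% and 11.3% of all genes passed. The median log2 change was 0.18, and the members ran from -0.19 (ERG5) to 0.55 (PDR11). The replicates of both groups spread widely, with the median of the enzyme genes relative to the reference mean at -0.35 in replicate 3 of the reference and at -0.22 in replicate 1 with 50% CO2, against 0.10 to 0.46 in the other 4 libraries. For the combination, low pH with high CO2 against the reference, 0 members passed both limits by limma's test, where 1.48% of all genes did. ERG7 alone fell at an adjusted p under 0.05 (-0.41 ± 0.11, adjusted p = 0.041), where 6.58% of all genes fell, and 4 members had an unadjusted p under 0.05 (1 higher, 3 lower), where 13.3% of all genes were higher and 16% lower at that p. ERG7 read 78.7, 87.5 and 87.1 in the reference and 83.9, 109.6 and 99.7 under high CO2 alone, and all its values under both lay below these. The median over the members was -0.16, and MOT3 had the highest value (0.71 ± 0.22, adjusted p = 0.058). For pH 3 against pH 5 at 50% CO2, 0 members passed both limits by limma's test, where 0.965% of all genes did, and 7 had an unadjusted p under 0.05 (1 higher, 6 lower), where 14.3% of all genes were higher and 15.1% lower. The median was -0.42, and ERG7 alone fell at an adjusted p under 0.05 (-0.61 ± 0.11, adjusted p = 0.0096), where 3.37% of all genes fell. Without replicate 3 of the reference and replicate 1 under high CO2 alone, an alternative chosen after seeing the data, 1 member fell past both limits in this comparison. Without that replicate 1 alone, 16 members fell and 1 rose at an adjusted p under 0.05, and without any other library 0 or 1 did. On FPKM as deposited the medians of the combination and of the low pH effect at 50% CO2 were 0.02 and -0.24, where those of all genes were 0.18 and 0.19.

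The difference between the CO2 effects at pH 3 and at pH 5 was tested as an interaction. Its log2 value was negative for 27 of 29 members, with a median of -1.26 against 0.01 over all genes. PDR11 (-2.49 ± 0.38, adjusted p = 0.0029) and ERG6 (-1.34 ± 0.24, adjusted p = 0.0048) passed both limits, where 2.15% of all genes were lower past them, and 18 members had an adjusted p under 0.05, where 14.3% of all genes were lower at that limit. The 18 comprised 6 early genes, 9 late genes, ARE2, PDR11 and ECM22. With a library left out in turn, from 10 to 23 members had an adjusted p under 0.05. The count of 2 past both limits was 15 without replicate 1 under high CO2 alone, 14 without that library and replicate 3 of the reference, 4 without replicate 1 under low pH alone, 1 without replicate 2 of the reference and 0 without any 1 of the remaining 9 libraries. On FPKM as deposited the median was -0.64 where that of all genes was 0.62, and the split over all genes was 24 higher and 33 lower in place of 13 and 109.

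The members with a response element core in the 600 base window may be set beside the others, as a description. For low pH at 0.04% CO2 their median log2 change was 1.03 (7 tested, 0.78 to 1.30) and that of the members without one was 0.79 (22 tested, -0.31 to 1.88). For high CO2 at pH 3 the medians were -1.34 (-1.99 to -0.83) and -0.93 (-1.94 to 0.36). The ranges overlapped, and PDR11 and HMG1, with large changes in both comparisons, hold no core in this window.

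Related genes differed in level. HMG1, whose other values are given above, read 118, 197 and 169 under high CO2 alone. HMG2 read 63.3, 58.0 and 35.3 in the reference, 37.1, 62.9 and 59.5 under high CO2 alone, 71.9, 98.8 and 101 under low pH alone, and 42.8, 37.6 and 31.9 under both. In scaled FPKM both were highest in all libraries under low pH alone, and HMG1 stood above HMG2 in every library. For the esterification enzymes, ARE1 read 4.59, 4.62 and 2.79 in the reference, 3.32, 4.85 and 6.16 under high CO2 alone, 9.28, 6.85 and 7.42 under low pH alone, and 2.29, 2.18 and 2.31 under both. On this scale the 3 values under both were the lowest of the 12, those under low pH alone the highest, and all were far below those of ARE2. The ARE1 gene overlaps the gene YCR050C on the opposite strand. The study describes strand-specific libraries, but whether the counts kept the strands apart was not tested. The overlap may thus affect the ARE1 values. For the importers, AUS1 read 13.1, 10.9 and 7.60 in the reference, 6.15, 10.7 and 11.8 under high CO2 alone, 11.8, 13.1 and 12.4 under low pH alone, and 5.90, 5.36 and 4.63 under both. AUS1 under low pH alone overlapped the reference, where PDR11 did not, and was lowest in the 3 libraries under both. For the activators, UPC2 read 6.46, 6.05 and 6.95 in the reference, 5.51, 5.23 and 5.27 under high CO2 alone, 5.78, 5.20 and 4.89 under low pH alone, and 4.23, 4.38 and 4.94 under both. ECM22 read 41.2, 38.3 and 30.7 in the reference, 35.0, 38.9 and 42.7 under high CO2 alone, 52.1, 69.7 and 69.1 under low pH alone, and 35.2, 37.5 and 41.8 under both. In scaled FPKM UPC2 was lower than in every reference library in all libraries of the other 3 groups, and ECM22 was highest under low pH alone. On FPKM as deposited, UPC2 under high CO2 alone and under both overlapped the reference. On that scale HMG1, HMG2, ARE1 and ECM22 under low pH alone also overlapped another group. UPC2 stood below ECM22 in every library. ARE1, AUS1 and UPC2 were under the limit for testing. The longest run of identical coding bases within a pair was 17 (ARE1 and ARE2) to 29 (UPC2 and ECM22).

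**Figure D4:**
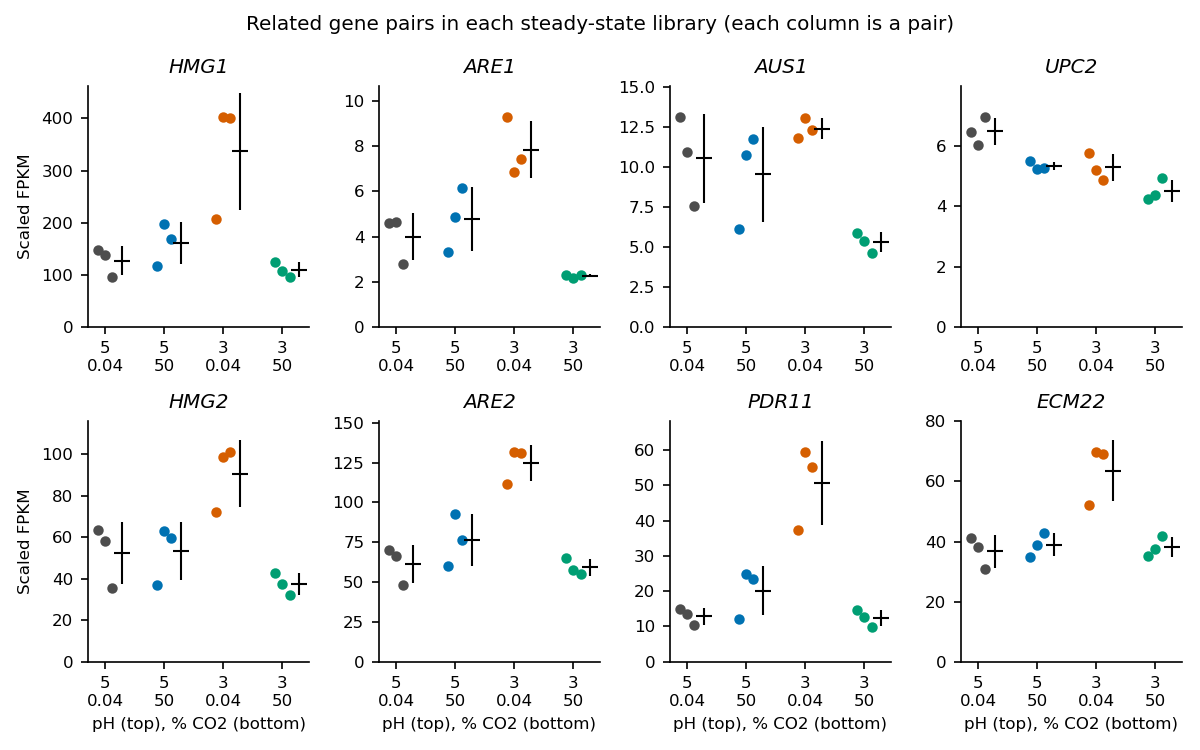
Each column is a pair of related genes; points are the scaled FPKM of each of the 3 libraries of a group and the bar is the mean ± SD, with groups named by pH and % CO2 and axes that start at 0 and differ between panels. In scaled FPKM HMG1, HMG2, ARE1, ARE2, PDR11 and ECM22 are highest in every library under low pH alone. AUS1 overlaps the reference there and UPC2 is highest in the reference. On FPKM as deposited only ARE2 and PDR11 keep this separation under low pH alone, and UPC2 in the reference overlaps other groups.

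Other genes of sterol metabolism were counted as a list. Of 18 of 20 further genes tested (sterol ester hydrolases, oxysterol-binding proteins, regulators and others), 1 rose past both limits for low pH at 0.04% CO2, where 2.82% of all genes did, and 3 fell for high CO2 at pH 3, where 8.15% did, with medians of 0.28 and -0.38. Of the 18, 5 rose and 1 fell at an adjusted p under 0.05 for low pH at 0.04% CO2, where 13.1% of all genes rose and 8.49% fell. At that limit 0 rose and 8 fell for high CO2 at pH 3, where 22.6% of all genes rose and 26.6% fell. YEH1, a sterol ester hydrolase, rose by 1.45 (adjusted p = 0.00028), with 120.1 to 123.9 scaled FPKM under low pH alone against 39.9 to 47.2 in the reference, and fell by 1.35 with high CO2 at pH 3 (adjusted p = 0.00036). NPC2, a sterol-transfer protein of the vacuole, fell by 1.84 (adjusted p = 0.0015) and HAP1, the heme-activated transcription factor, by 1.27 (adjusted p = 0.00057) with high CO2 at pH 3. YEH1 (-1.73 ± 0.25, adjusted p = 0.0027) and SUT1, a regulator of sterol uptake (-1.63 ± 0.23, adjusted p = 0.0027), passed the interaction, where 2.15% of all genes were lower past both limits. SUT1 read 20.0 to 26.9 in the reference, 40.4 to 54.6 under high CO2 alone, 37.7 to 47.8 under low pH alone and 25.8 to 32.2 under both. For high CO2 at pH 5, 0 of the 18 passed both limits. At an adjusted p under 0.05 by limma's test, 2 rose and 1 fell, where 2.01% of all genes passed in either direction. They were SUT1 (1.02, adjusted p = 0.006), SUT2 (0.80, adjusted p = 0.024) and OSH6 (-0.71, adjusted p = 0.0055). Of the genes that use farnesyl diphosphate outside sterol synthesis, none of the 3 tested by limma passed both limits in a chemostat comparison. For low pH at 0.04% CO2 0 of them had an adjusted or unadjusted p under 0.05, where 37.6% of all genes had the latter, and for high CO2 at pH 3 COQ1 (-0.28) and RER2 (0.44) had an adjusted p of 0.04 each. At an adjusted p under 0.05, 26.6% of all genes fell and 22.6% rose for high CO2 at pH 3.

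Genes known to respond to oxygen and heme were read beside the members. Of the 8 listed, 3 were tested in the chemostats, of which 1 rose past both limits for low pH at 0.04% CO2 and 1 fell for high CO2 at pH 3. Past both limits, 2.82% of all genes rose in the former comparison and 8.15% fell in the latter. HEM13, an oxygen-requiring enzyme of heme synthesis whose gene is induced when oxygen or heme is short, read 43.1 to 64.1 scaled FPKM in the reference, 31.9 to 64.7 under high CO2 alone, 123 to 152 under low pH alone and 30.4 to 46.1 under both. It rose for low pH at 0.04% CO2 (1.42 ± 0.26, adjusted p = 0.0034) and fell for high CO2 at pH 3 (-1.81 ± 0.26, adjusted p = 0.00057). OLE1, the fatty acid desaturase, fell for high CO2 at pH 3 at an adjusted p of 0.017 (-1.35 ± 0.40), and CYC7 had no adjusted p under 0.05 in the chemostats. Of the 5 under the limit, ANB1, AAC3 and DAN1 were highest under low pH alone (20.8 to 42.0, 9.07 to 17.8 and at least 6.47, against at most 9.38, 2.64 and 0.560 in the other chemostat groups), while COX5B read 6.70 to 7.50 there, against 6.54 to 16.3 in the other groups, and TIR1 3.14 to 4.38, against 0.641 to 6.28. Their part and that of oxygen or heme supply in the members' changes was not tested.

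In the laboratory retentostats 14 of the 25 enzyme genes declined over the sampling points at an adjusted p under 0.05. The tests of both retentostat series treat libraries of 1 culture at different points as independent, so their SE and p-values leave the culture out. All 34 members passed the limit on FPKM there, and 27 had a negative slope per sampling point, with a median of -0.24 on the log2 scale against 0.00 over all genes. At the study's limits for a trend, an adjusted p under 0.03 and an R2 above 0.8, 7 members fell (HMG1, ERG12, ERG11, ERG25, ERG3, ERG5 and NCP1) and 0 rose, where 4.69% of 5666 genes fell and 4.78% rose. The 7 include 4 of the 5 genes of the oxygen-requiring steps listed (ERG11, ERG25, ERG3 and ERG5, without ERG1). At an adjusted p under 0.05, 15 members fell, where 15.8% of all genes did, and 1, AUS1, rose, where 14.3% did.

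ERG25 read 1521 and 1179 at point 1, 1078 and 1316 at point 2, 499.6 and 535 at point 3, and 484 and 409 at point 4 (2 cultures each). The first 2 points overlapped and points 3 and 4 lay below all of them, with a slope of -0.60 ± 0.10 per point (adjusted p = 0.0054, R2 = 0.866). ERG12 read 132 and 129.9 at point 1, 97.5 and 100.2 at point 2, 52.8 and 51.0 at point 3, and 61.6 and 48.8 at point 4, falling over the first 3 points (slope -0.46 ± 0.07, adjusted p = 0.0053). HMG1 read 224 and 224 at point 1, 151 and 194 at point 2, 129 and 128 at point 3, and 121 and 122 at point 4, where the cultures agreed closely except at point 2 (slope -0.31 ± 0.06, adjusted p = 0.0064). ERG3 read 773 and 725 at point 1, 524 and 572 at point 2, 315 and 351 at point 3, and 342 and 311 at point 4. Its level at points 3 and 4 was under that of both earlier points in each culture (slope -0.43 ± 0.07, adjusted p = 0.0056). NCP1 read 90.0 and 91.4 at point 1, 72.5 and 62.3 at point 2, 45.0 and 37.4 at point 3, and 47.8 and 36.5 at point 4, with a like course (slope -0.40 ± 0.07, adjusted p = 0.0059). ERG11 read 1122 and 959.6 at point 1, 611 and 1001 at point 2, 555 and 569 at point 3, and 525 and 469.8 at point 4, and ERG5 read 622 and 545 at point 1, 403 and 588 at point 2, 288 and 352 at point 3, and 254 and 294 at point 4. In both, replicate 2 at point 2 stood near the level of point 1. Their slopes were -0.37 and -0.39.

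From the first to the last point, 4 members fell past a fold change of 2 at an adjusted p under 0.005 (ERG12, ERG25, ERG3 and NCP1), where 2.47% of all genes fell, and 16 at an adjusted p under 0.05, where 16.2% did. With culture as a block, 2 members passed both limits. ERG6 had the steepest slope of all members, -0.64 ± 0.13 (adjusted p = 0.0094), with 462 and 479.5 at point 1, 219 and 216 at point 2, 134 and 96.5 at point 3, and 183 and 96.6 at point 4, but missed the limit on R2, at 0.729. HMG2 read 60.7 and 62.2 at point 1, 67.9 and 81.5 at point 2, 84.8 and 93.2 at point 3, and 61.5 and 86.2 at point 4 and, unlike HMG1, had a positive slope, 0.10 ± 0.07 (adjusted p = 0.31). AUS1 read 16.3 and 18.6 at point 1, 14.3 and 22.4 at point 2, 26.4 and 28.8 at point 3, and 25.1 and 27.9 at point 4 (slope 0.23 ± 0.07, adjusted p = 0.039). ARE1 read 14.4 and 14.1 at point 1, 13.1 and 17.2 at point 2, 10.98 and 9.34 at point 3, and 9.24 and 8.84 at point 4 (slope -0.23 ± 0.07, adjusted p = 0.027). PDR11 (23.7 to 28.8 over the 8 libraries), UPC2 (13.5 to 17.8), ECM22 (40.1 to 61.6), ARE2 (71.3 to 119.5) and HES1 (9.08 to 17.2) passed at neither limit. The cultures differed most at point 2 (chi-square per gene 410), with ERG10 at 109 and 262 and ROX1 at 494 and 224 in replicates 1 and 2. Of the 7 members with a trend, 0 were left without replicate 1 at point 1 and 0 without replicate 2 at point 1, 1 was left without replicate 2 at point 4, and 12 members passed without replicate 1 at point 2. On FPKM as deposited 4 members passed, the median slope of all genes was 0.07, and the split over all genes turned from 271 higher and 266 lower to 548 higher and 93 lower. For the last against the first point, where a point left with 1 library is assumed to vary like the others, the count of 4 was 10 without either library of point 2 and 0 without any other library, and on FPKM as deposited 2.

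**Figure D5:**
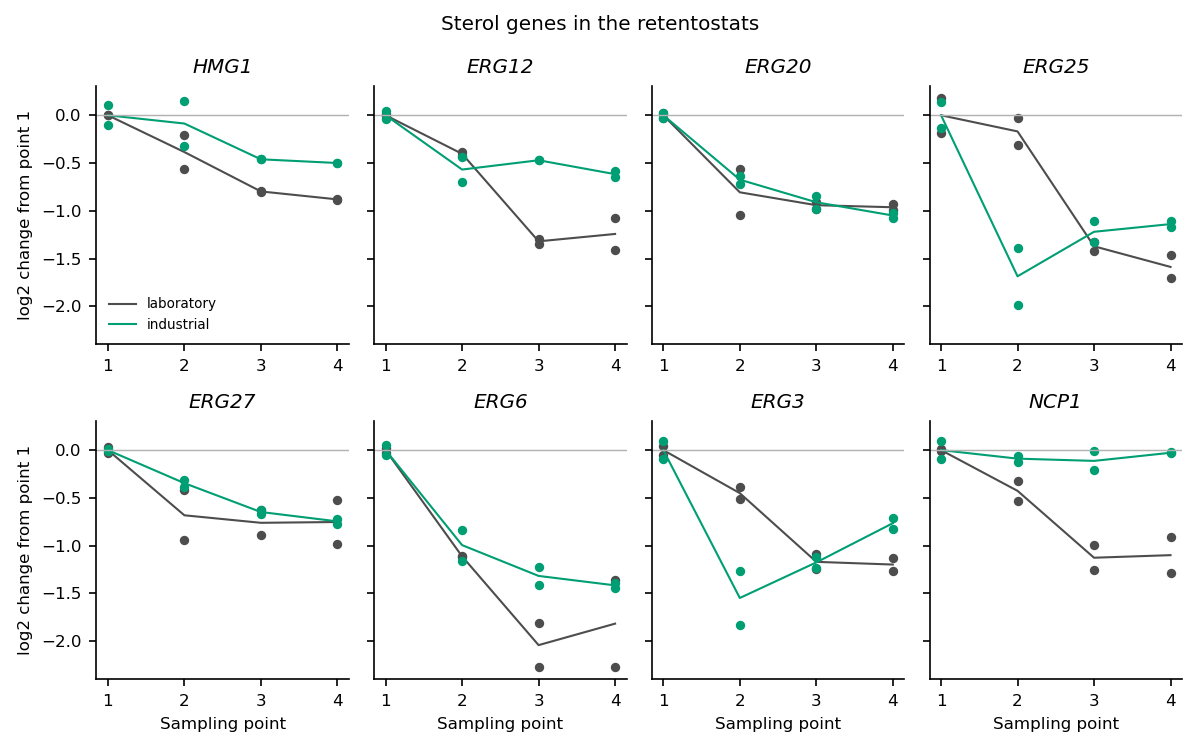
Points are single libraries and lines join the means of the 2 cultures, as log2(scaled FPKM + 1) minus the mean at point 1 of the same condition, for 8 members in laboratory (grey) and industrial (green) retentostats; the points are numbered in order of sampling and are not the same times in both. Most lines fall, NCP1 stays near 0 in the industrial retentostats, and at point 2 ERG25 overlaps its first level in the laboratory but not in the industrial retentostats.

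In the industrial retentostats 12 of the 24 enzyme genes tested declined at an adjusted p under 0.05. Of the 29 members tested, 26 had a negative slope, with a median of -0.19 per point against 0.00 over all genes, and all 24 enzyme genes tested were among them. Past the limits for a trend, 5 members fell (ERG10, ERG20, ERG26, ERG27 and ERG6) and 0 rose, where 2.75% of 5130 genes fell and 3.65% rose. At an adjusted p under 0.05, 12 members fell, where 7.64% of all genes did, and 0 rose. ERG6 read 417 and 449.8 at point 1, 194 and 243 at point 2, 185 and 162 at point 3, and 165 and 159 at point 4, falling between points 1 and 3 (slope -0.46 ± 0.08, adjusted p = 0.0073). ERG20 read 116 and 112 at point 1, 73.4 and 69.1 at point 2, 63.2 and 57.6 at point 3, and 55.5 and 53.9 at point 4, lower at each point than at the one before in every library (slope -0.34 ± 0.05, adjusted p = 0.0048). ERG27 read 167 and 169 at point 1, 135 and 129 at point 2, 105 and 108 at point 3, and 97.7 and 102 at point 4, with the cultures close together (slope -0.25 ± 0.03, adjusted p = 0.0034, R2 = 0.944). ERG10 read 445 and 402 at point 1, 334 and 312 at point 2, 295 and 281 at point 3, and 264 and 269 at point 4, and ERG26 read 149 and 137 at point 1, 121 and 102 at point 2, 78.9 and 82.9 at point 3, and 82.2 and 87.2 at point 4. Their slopes were -0.22 and -0.27. Neither ERG20 nor ERG27 had an adjusted p under 0.05 in any of the chemostat comparisons.

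The 5 genes of the oxygen-requiring steps passed no limits for a linear trend. ERG25 read 957 and 794 at point 1, 219 and 333 at point 2, 403 and 347 at point 3, and 403 and 388 at point 4, with its lowest values at point 2. ERG3 read 465 and 409 at point 1, 122 and 181 at point 2, 201 and 184 at point 3, and 246 and 267 at point 4, and ERG1 read 543 and 469 at point 1, 172 and 266 at point 2, 278 and 251 at point 3, and 268 and 261 at point 4. ERG11 read 1021 and 851 at point 1, 387 and 538 at point 2, 572 and 508 at point 3, and 581 and 552 at point 4, and ERG5 read 436 and 349 at point 1, 171 and 206 at point 2, 182 and 179 at point 3, and 228 and 225 at point 4. The library of point 2, replicate 1, was the lowest of the 8 for each of the 5, and the R2 of the linear trend was 0.263, 0.131, 0.318, 0.272 and 0.35 in this order. From the first to the last point, ERG20 (-1.05 ± 0.10, adjusted p = 0.0011) and ERG6 (-1.42 ± 0.13, adjusted p = 0.0011) fell past both limits, where 0.819% of all genes fell. At an adjusted p under 0.05, 18 members fell and 1 rose, where 14.3% of all genes fell and 14.2% rose, and all 5 genes of the oxygen-requiring steps were among the 18. The 1 that rose was ECM22, with 35.2 and 37.5 at point 1, 45.2 and 44.3 at point 2, 40.8 and 43.9 at point 3, and 46.7 and 45.0 at point 4 (0.33 ± 0.09, adjusted p = 0.036). Of the 5 members with a trend, 2 were left without replicate 1 and 2 without replicate 2 of point 1, 3 without replicate 1 and 3 without replicate 2 of point 4, and 12 passed without replicate 1 of point 2. Of the 2 members past both limits between the first and the last point, 0 were left without any 1 library of those points, and on FPKM as deposited 1 was left.

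Beside these declines, OLE1 fell in both conditions. Its level went from 3122 to 4872 at the first to 1530 to 1601 at the last point in the laboratory retentostats, where it passed the limits for a trend (-0.43 ± 0.10, adjusted p = 0.011), and from 2278 to 2843 to 999 to 1101 in the industrial retentostats, where it passed between the first and the last point (-1.28 ± 0.13, adjusted p = 0.0014). HEM13 fell between these points in the industrial retentostats (-1.18 ± 0.12, adjusted p = 0.0015), with -0.32 in the laboratory retentostats (adjusted p = 0.25), and COX5B rose in the industrial retentostats (1.08 ± 0.13, adjusted p = 0.0024). In the laboratory retentostats 3 of the 6 oxygen-responsive genes tested rose from the first to the last point at an adjusted p under 0.05, where 13.8% of all genes rose, and 1 fell (OLE1), where 16.2% fell. The 3 that rose were COX5B (1.36 ± 0.28, adjusted p = 0.011), CYC7 (1.98 ± 0.42, adjusted p = 0.013) and DAN1 (1.94 ± 0.43, adjusted p = 0.015). Of the further sterol genes, HAP1 fell in the laboratory retentostats (slope -0.18 ± 0.04, adjusted p = 0.011 by limma's test). It was the 1 of 20 past the limits there, where 4.69% of all genes fell. In the industrial retentostats 0 of 19 passed by limma's test, where 2.75% of all genes fell and 3.65% rose. At an adjusted p under 0.05, 0 were higher and 2 lower, where 7.64% of all genes fell. At an unadjusted p under 0.05 the counts were 0 and 3, where 16.4% of all genes fell.

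The slopes of the 2 conditions were compared in a single fit. At an adjusted p under 0.03 the slopes differed for 3.31% of 5613 genes and for 1 of 32 members, a count near that share. The 1 member was NCP1. Its industrial libraries read 65.3 and 57.4 at point 1, 58.7 and 56.3 at point 2, 60.6 and 52.7 at point 3, and 59.8 and 60.2 at point 4, between 52.7 and 65.3 throughout, so that the industrial slope, -0.01 ± 0.04, exceeded the laboratory slope by 0.39 ± 0.08 (adjusted p = 0.018). For the other members no difference in slope was shown. With the number in the sample titles in place of the order of the points, 0 members differed. The count of 1 became 0 without either library of laboratory point 1, either of industrial point 1, either of industrial point 4, replicate 2 of laboratory point 4 or replicate 2 of industrial point 2, 2 without replicate 1 of laboratory point 4 and 3 without replicate 1 of laboratory point 2. Levels are not compared between the conditions, whose libraries were, by the study's methods, sequenced by different companies. ERG8 shows how far apart they can be, with 62.8 to 99.8 scaled FPKM in the laboratory retentostats and 4.91 to 7.64 in the industrial retentostats.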

How the data were processed

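Messenger RNA was measured in 26 libraries of *S. cerevisiae* CEN.PK113-7D. Per the labels and the study's methods, the authors aligned reads to build R64 with STAR (version 2.5.3a), counted them with HTSeq and deposited FPKM per gene for each library. Of the 6600 gene identifiers, 5917 were in the R64 annotation used for positions and sequences. Reads recovered from the FPKM by the span of each gene were whole for 99.7 to 99.9% of the values checked (within 0.05 read) and served only to give depth.

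The deposited FPKM carry no scaling between libraries. They were scaled by trimmed means of log ratios, with 30% of the ratios and 5% of the levels trimmed, coded in R 4.3.3: the 18 chemostat and industrial libraries together, the 8 laboratory retentostat libraries on their own. Genes whose FPKM averaged 10 or more were fitted on log2(scaled FPKM + 1), which understates changes of low genes, with limma 3.58.1 (moderated test with a trend, Benjamini-Hochberg adjustment over all genes tested). Chemostat groups shared 1 fit. The retentostat fits held no term for the culture, except in the alternative with a replicate block. Calls needed a fold change above 2 and an adjusted p under 0.005, and trends over sampling points 1 to 4 an adjusted p under 0.03 and an R2 above 0.8, as in the study, which regressed on growth rate. The number of reads limits the precision of low genes.

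The 34 members, the other lists and the tests were chosen with earlier results of these data known. For members past the limits in a chemostat comparison or trend, values are given for every library of the chemostat groups or retentostat series concerned. For the 4 related pairs they are given for every library of the chemostat groups. Library values of ERG1, ERG7, ROX1 and HES1, the 600 base window, and the genes of other lists named without passing the limits were chosen after seeing the data. The titles give each chemostat library a culture number of its own. Retentostat libraries of the same number share 1 culture number in the titles, and their deviations from the point means correlated with r from -0.011 to 0.717 (laboratory) and from -0.066 to 0.272 (industrial), while chemostat numbers share only a number. Alternatives were FPKM as deposited, median scaling, quantile normalization, a pseudocount of 0.1, no filter, a replicate block, other limits, other samples in the fit, the number in the sample title, and each library left out. The fit was tested on simulated data. Python 3.11.15, numpy 2.4.6, scipy 1.17.1 and pandas 2.3.3 were used.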

Additional observations from a re-analysis of the deposited data

Results flagged for a closer look

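The effect of 50% CO2 on ERG6 differed between the pH values by -1.34 on the log2 scale (SE 0.24, adjusted p = 0.0048 by limma's test), with 0.22 at pH 5 and -1.12 at pH 3, and passed both limits under 4 of 20 alternatives. That on PDR11 differed by -2.49 (SE 0.38, adjusted p = 0.0029 by limma's test), with 0.55 at pH 5 and -1.94 at pH 3, and passed under 9 of 20 alternatives. The slope of NCP1 over the sampling points was higher by 0.39 in the industrial than in the laboratory retentostats (adjusted p = 0.018 by limma's test), with -0.01 and -0.40 per point. This difference passed under 13 of 23 alternatives. It was the 1 called among 32 members, near the share of 3.31% over all 5613 genes.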

How the results depend on the processing

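Counts of members past the limits turned on the settings, and no called member changed direction under any alternative run. At an adjusted p under 0.05 with no limit on fold or R2 the counts were 18 for low pH at 0.04% CO2, 1 for the combination, 23 for high CO2 at pH 3, 1 for low pH at 50% CO2 and 18 for the interaction. They were 16 for the laboratory trend (15 lower, 1 higher), 16 for its last against first point, 12 for the industrial trend and 19 for its last against first point (18 lower, 1 higher). The shares of all genes at this limit are given with each comparison above. All counts from here on are at the limits of the calls. The share of all genes called moved with the setting too, so these counts cannot be read alone. For high CO2 at pH 3 it was 8.84% in the main setting, 23.7% on FPKM as deposited and 7.4% with quantile normalization. For low pH at 0.04% CO2 it was 3.62%, 3.82% and 2.56% in this order. FPKM as deposited gave 1 for low pH at 0.04% CO2, 3 for high CO2 at pH 3, 1 for the interaction, 4 for the laboratory trend, 2 for its last against first point, 1 for the industrial last against first point and 0 for the difference of trends. Median scaling left 1 for the interaction, and quantile normalization 3 for low pH at 0.04% CO2, 7 for high CO2 at pH 3 and 1 for the interaction. With no filter the interaction kept a count of 1, the laboratory last against first point 2 and the difference of trends 2. With only the library labelled chemostat at pH 3 and 50% CO2 the counts were 2 for low pH at 0.04% CO2, 0 for high CO2 at pH 3 and 0 for the interaction, and with only the groups compared 2 for low pH at 0.04% CO2. With the number in the sample title the difference of trends had 0. Without both low pH 5 libraries, chosen after seeing the data, low pH at 50% CO2 had 1 and the interaction 14. The replicate block gave 2 for low pH at 0.04% CO2, 6 for high CO2 at pH 3, 0 for the interaction and 2 for the laboratory last against first point, and no other count of calls moved by over 1.5 times with it. Chemostat libraries share only a number, with correlations of their deviations from -0.802 to 0.502 (median -0.052). Between libraries of different number in different groups these ran from -0.725 to 0.847 (median 0.012). Some libraries of different groups thus deviated alike, which the replicate block does not take up, and what they share was not tested.

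With a library left out in turn, the counts ran from 1 to 8 for low pH at 0.04% CO2, 1 to 14 for high CO2 at pH 3, 0 to 15 for the interaction, 0 to 12 for the laboratory trend, 0 to 10 for its last against first point, 2 to 12 for the industrial trend, 0 to 3 for its last against first point and 0 to 3 for the difference of trends, and stayed at 0 for high CO2 at pH 5, the combination and low pH at 50% CO2. Of the single members called, 429 of their values under alternatives stayed past the limits and 234 did not. Causes of these shifts were not tested, and the fits that leave a library out also hold fewer libraries.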
